A study of Mus musculus with 8 samples.

Results

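A set of 45 genes lay under 1 CPM (a gene's count divided by the library total and scaled up in the usual way) in all 4 WT libraries and at or above 2 CPM in both Ezh2-KO libraries of CD44+ NK1.1- cells, a subset of natural killer T (NKT) cells of the mouse thymus. They were chosen from 27179 genes in the table by those levels, so the WT levels and the levels of those 2 Ezh2-KO libraries describe the choice and are given with no test. Before exclusions 49 genes passed. The rule left out Eomes, Mef2c, Grb10 and Ccl3, which leaves 45, of which 44 have a symbol in the RefSeq table. What the choice did not use are the Ezh2-KO libraries of the other cell subsets, CD44+ NK1.1+ and CD44- NK1.1-, 1 library each.

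NKT cells carry a T cell receptor for lipid antigens on CD1d. Ezh2 is the enzyme of Polycomb repressive complex 2, which methylates histone H3 on lysine 27. Genes under that mark are typically regulators and effectors of other tissues, kept off in a given cell type. Loss of the enzyme can let some of them be transcribed.

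The groups were WT (wild-type) and Ezh2-KO (Ezh2 knock-out) NKT cells of the C57BL/6 background. Subsets were defined by CD44, an adhesion receptor, and NK1.1, a receptor of natural killer cells. CD44- NK1.1- cells are usually taken as early and CD44+ NK1.1+ cells as late in thymic maturation. For CD44+ NK1.1- cells each genotype had 2 biological replicates, and the remaining groups had a single library. How and in which cells Ezh2 was deleted, how old the mice were, and whether subsets came from the same mice is not given in the sources used here.

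Library totals ranged from 20308745 to 22995090 counts, so that 3 counts, the limit that a count of 0 allows, came to 0.130 to 0.148 CPM. Intervals and limits cover counting error only. Ezh2 itself measured 113 and 137 CPM in the WT and 86.0 and 81.4 CPM in the Ezh2-KO replicates of CD44+ NK1.1- cells. It stood at 53.1 and 37.7 CPM in CD44+ NK1.1+ and at 109 and 82.1 CPM in CD44- NK1.1- cells of WT and Ezh2-KO. Reads over Ezh2 therefore remained in every Ezh2-KO library. Summed T cell genes (Cd3e, Cd3d, Cd3g, Trbc1, Trbc2) lay between 3253 and 4090 CPM in the 8 libraries, and the NKT factor gene Zbtb16 between 106 and 452 CPM. Klrb1c, which encodes NK1.1, was at 1064 and 1351 CPM in the NK1.1+ libraries and between 16.1 and 217 CPM in the others. The WT CD44+ NK1.1- replicates were uneven for Klrb1c, at 217 and 69.3 CPM, against 51.7 and 43.6 CPM in those of Ezh2-KO.

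Replicates of CD44+ NK1.1- cells were closer to each other in Ezh2-KO than in WT. More than 2-fold apart were 203 of 9959 genes (2.04%) between the WT replicates and 4 of 10117 (0.0395%) between those of Ezh2-KO, counting genes with a mean of at least 5 CPM over the replicates.

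"Off in WT" holds only as a level. Gpc4 alone of the 45 had 0 counts in all 4 WT libraries, and the median of the 45 was 0.225 and 0.304 CPM in the WT CD44+ NK1.1- replicates, 0.0895 in WT CD44+ NK1.1+ and 0.408 in WT CD44- NK1.1- cells. The WT CD44- NK1.1- library was the highest of the WT libraries for 26 of the 45. Just inside the thresholds stood Ly86, Lmo7 and Fsd1l, each at 2.07 CPM in the lower Ezh2-KO replicate, and a gene without a symbol, at 0.998 CPM in its highest WT library. Just outside stood Sowahc and St6galnac1, at 1.98 CPM in the lower Ezh2-KO replicate, and Strc and Serinc2, at 1.04 CPM in their highest WT library.

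The choice in the opposite direction found far fewer genes. Of 14872 genes under 1 CPM in all 4 WT libraries, the 49 at or above 2 CPM in both Ezh2-KO CD44+ NK1.1- libraries are 0.329%. Of 14662 genes under 1 CPM in all 4 Ezh2-KO libraries, 3 (0.0205%) reached 2 CPM in both WT CD44+ NK1.1- libraries. These are counts by the same thresholds, with no test.

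Promoter sequences are shown for Gpc4, Tmem98, Dmxl2 and Myh3, genes that differed between the single Ezh2-KO libraries and have 1 start in the promoter table. They span 250 bases before to 50 after the start, on RefSeq's GRCm38.p6, 5′ to 3′ on the gene's strand, with each CG pair in capitals. The starts are those of the promoter table. For Dmxl2 and Myh3 the start lies inside the RefSeq bounds of the gene, so part of the stretch before it does too. CG pairs are often dense in promoters under Polycomb control.
Gpc4, minus strand of chrX:52164874-52165173: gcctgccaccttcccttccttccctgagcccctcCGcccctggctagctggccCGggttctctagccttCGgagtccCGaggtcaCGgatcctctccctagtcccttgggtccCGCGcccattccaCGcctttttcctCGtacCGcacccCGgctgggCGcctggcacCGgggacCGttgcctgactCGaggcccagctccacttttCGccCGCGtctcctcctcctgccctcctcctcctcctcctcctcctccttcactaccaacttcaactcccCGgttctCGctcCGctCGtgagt
Tmem98, plus strand of chr11:80810116-80810415: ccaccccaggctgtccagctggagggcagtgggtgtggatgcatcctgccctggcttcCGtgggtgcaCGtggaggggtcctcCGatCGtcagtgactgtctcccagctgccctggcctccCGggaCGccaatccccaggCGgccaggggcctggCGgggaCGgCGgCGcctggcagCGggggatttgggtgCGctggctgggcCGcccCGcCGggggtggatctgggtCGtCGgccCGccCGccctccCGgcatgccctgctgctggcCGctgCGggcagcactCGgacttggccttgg
Dmxl2, minus strand of chr9:54501577-54501876: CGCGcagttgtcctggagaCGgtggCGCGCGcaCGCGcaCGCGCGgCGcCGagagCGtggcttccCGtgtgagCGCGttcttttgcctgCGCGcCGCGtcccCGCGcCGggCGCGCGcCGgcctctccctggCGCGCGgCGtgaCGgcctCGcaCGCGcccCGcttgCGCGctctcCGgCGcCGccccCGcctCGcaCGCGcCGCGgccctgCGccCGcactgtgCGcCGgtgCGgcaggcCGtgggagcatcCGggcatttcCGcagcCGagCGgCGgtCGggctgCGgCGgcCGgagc
Myh3, plus strand of chr11:67078050-67078349: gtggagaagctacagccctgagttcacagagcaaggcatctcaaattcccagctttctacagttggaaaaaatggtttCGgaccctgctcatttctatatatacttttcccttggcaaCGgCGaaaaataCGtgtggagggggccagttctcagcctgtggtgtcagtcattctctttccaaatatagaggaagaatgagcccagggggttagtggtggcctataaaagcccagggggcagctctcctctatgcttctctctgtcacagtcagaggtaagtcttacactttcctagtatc

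The CG pair, which reads the same on both strands, occurs 22 times in the Gpc4 window, 24 in that of Tmem98, 63 in that of Dmxl2 and 4 in that of Myh3. Over all genes of the table with a promoter entry, 57.3% held 10 or more CG pairs, as the mean over a gene's starts. A comparison of the 45 genes with others on this measure is void, because 34 of the 45 (75.6%) had a promoter entry, under the 80% needed.

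Nuclear regulators among the 45 were Tcf24, Hdac9 and Zbtb7c. Tcf24, a basic helix-loop-helix transcription factor gene (gene identifier 100039596, chromosome 1, 9960163 to 9967981 on mm10), had 1 and 0 counts in the WT CD44+ NK1.1- replicates, 1 in WT CD44+ NK1.1+ and 3 in WT CD44- NK1.1- cells. In Ezh2-KO it stood at 20.9 and 15.3 CPM in the CD44+ NK1.1- replicates, at 3.47 CPM in CD44+ NK1.1+ and at 12.4 CPM in CD44- NK1.1- cells. Every Ezh2-KO library thus lay above every WT library, with the CD44+ NK1.1+ library lowest. Per length, in RPKM (CPM per kilobase of the length in the table), Tcf24 had the highest level of the 45, with a mean of 36.1 over the Ezh2-KO CD44+ NK1.1- replicates, over a listed length of 501 bases. Hdac9 encodes a class IIa histone deacetylase, a partner of MEF2 factors (gene identifier 79221, chromosome 12, 34047580 to 34917095). It had 0.0451 and 0.0870 CPM in the WT replicates, 0.224 in WT CD44+ NK1.1+ and 0.136 in WT CD44- NK1.1- cells. In Ezh2-KO it had 6.35 and 7.38 CPM in the replicates, 1.92 in CD44+ NK1.1+ and 0.240 in CD44- NK1.1- cells. The last value lies close to the highest WT library, so Hdac9 was raised in CD44+ libraries and near its WT level in the CD44- library. Zbtb7c, a zinc finger gene of the BTB family, stood at 2.46 and 2.87 CPM in the Ezh2-KO replicates against 0.766 and 0.913 in WT. In CD44+ NK1.1+ cells it had 0.403 CPM in WT and 0.798 CPM in Ezh2-KO. CD44- NK1.1- cells had 0 counts of Zbtb7c in either genotype, a limit of 0.136 CPM in WT and 0.144 CPM in Ezh2-KO.

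Surface receptors and their partners were Unc5c, Ednrb, Gpr153 and Ly86. Unc5c, a netrin receptor of axon guidance (gene identifier 22253, chromosome 3, 141465564 to 141834924), had 1, 1, 1 and 5 counts in the WT libraries, at most 0.227 CPM. It reached 8.47 and 7.43 CPM in the Ezh2-KO CD44+ NK1.1- replicates, but 0.657 CPM (95% interval 0.359 to 1.102) in CD44+ NK1.1+ and 0.576 CPM (0.298 to 1.01) in CD44- NK1.1- cells. Of the 8 genes under 1 CPM in both single Ezh2-KO libraries it had the highest CPM in CD44+ NK1.1- cells. These and later intervals are exact Clopper-Pearson intervals. Ednrb, an endothelin receptor gene of neural crest and vessel cells, had 2.22 and 2.12 CPM in the Ezh2-KO replicates, 0.282 in CD44+ NK1.1+ and 1.82 in CD44- NK1.1- cells. The orphan receptor gene Gpr153 showed a like order, with 2.95, 3.06, 0.235 and 1.01 CPM in the same libraries. Ly86 encodes MD-1, which binds the B cell and myeloid receptor RP105. It had 2.07 and 2.21 CPM in the Ezh2-KO replicates, 1.41 in CD44+ NK1.1+ and 4.41 in CD44- NK1.1- cells, against at most 0.261 CPM in WT, so the highest library lay outside the ones that chose it.

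**Figure D1:**
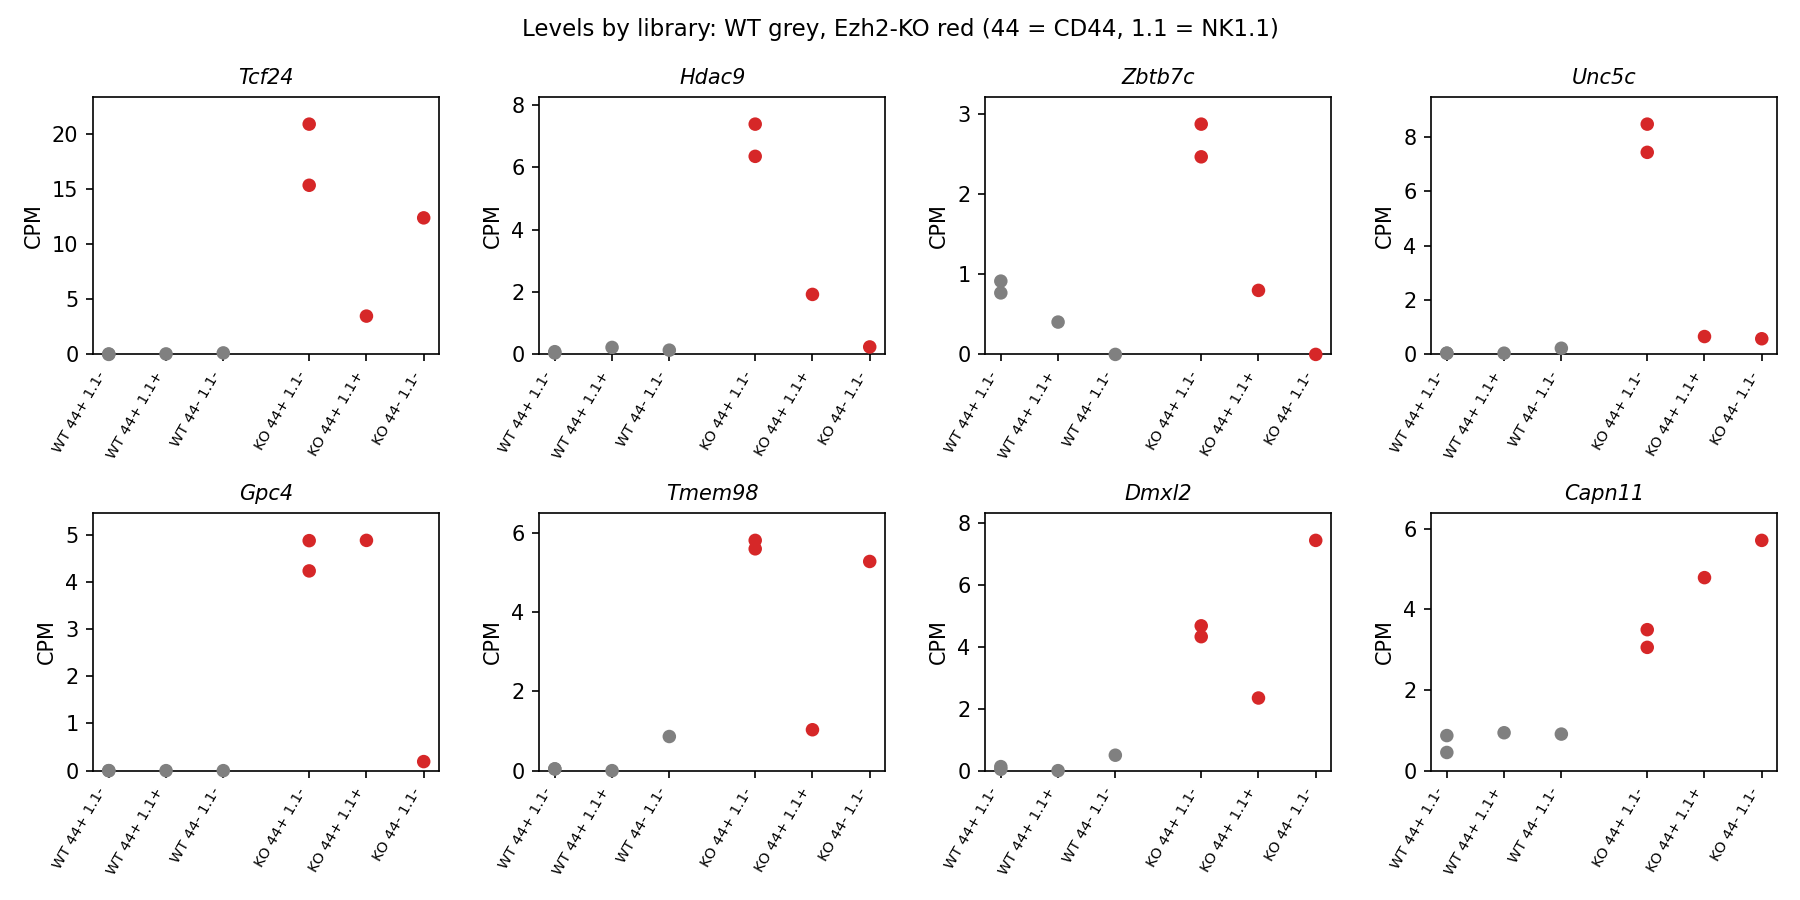
CPM on a linear axis from 0 by group for 8 of the 45 genes, with a point for each library, WT in grey and Ezh2-KO in red. Tcf24 was above 3 CPM in every Ezh2-KO library, Hdac9 and Gpc4 fell to 0.240 and 0.192 CPM in the Ezh2-KO CD44- NK1.1- library, and Unc5c stayed under 1 CPM in both single Ezh2-KO libraries.

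Adhesion and matrix genes made the largest role group, with 9 of the 45. Gpc4 encodes a glypican, a heparan sulfate carrier at the cell surface (gene identifier 14735, chromosome X, 52051007 to 52164923). Its 4 WT libraries held 0 counts, and its Ezh2-KO CD44+ NK1.1- replicates 4.87 and 4.23 CPM. Ezh2-KO CD44+ NK1.1+ cells had 4.88 CPM (3.99 to 5.91) and CD44- NK1.1- cells 0.192 CPM (0.0523 to 0.491). Gpc4 was therefore as high in CD44+ NK1.1+ as in CD44+ NK1.1- Ezh2-KO cells and near its limit of detection in the CD44- library. Spp1, which encodes osteopontin, had 0.0451, 0.261, 0 and 0.363 CPM in the WT libraries and 5.96, 4.94, 3.71 and 2.78 CPM in the Ezh2-KO libraries, in the order CD44+ NK1.1- replicates, CD44+ NK1.1+ and CD44- NK1.1-. All 4 Ezh2-KO libraries of Spp1 lay above all 4 WT libraries. Pkp2, a plakophilin of desmosomes, had 2.56, 2.63, 2.91 and 1.78 CPM in Ezh2-KO in that order, with at most 0.315 CPM in WT. Nectin3 (3.004, 2.12, 1.27 and 2.59 CPM), the cell polarity gene Pard3b (2.12, 2.16, 1.69 and 3.45 CPM) and the synaptic adhesion gene Lrfn3 (2.31, 2.35, 1.03 and 2.69 CPM) were lowest in CD44+ NK1.1+ among Ezh2-KO libraries. Cdh2, which encodes N-cadherin, the matrix protein gene Sparc and the junction gene Lmo7 were under 1 CPM in both single Ezh2-KO libraries. In CD44+ NK1.1+ and CD44- NK1.1- cells they had 0.657 and 0.720, 0.188 and 0.480, and 0.422 and 0.768 CPM. In WT, Cdh2 had 0.0448 and 0.725 CPM in these subsets, so in CD44- NK1.1- cells it was not higher in Ezh2-KO.

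Cytoskeleton and muscle genes numbered 8. Arhgap32, a GTPase activating gene (gene identifier 330914, chromosome 9, 32016625 to 32268443), had 0.541, 0.304, 0.313 and 0.227 CPM in WT and 7.29, 5.22, 2.25 and 3.26 CPM in Ezh2-KO. Pls3, which encodes the actin bundler plastin 3, had 0.361, 0.609, 0.224 and 0.589 CPM in WT and 5.12, 5.83, 2.25 and 5.23 CPM in Ezh2-KO. Both genes had every Ezh2-KO library above every WT library. A pair of striated muscle genes differed from one another. Myot, which encodes myotilin of the Z disc, had 0 counts in 3 WT libraries and 3 in the WT CD44- NK1.1- library, and 5.47, 5.36, 0.141 and 1.34 CPM in Ezh2-KO. Myh3, the embryonic myosin heavy chain gene, had 0.541, 0.304, 0.224 and 0.907 CPM in WT and 3.35, 2.92, 1.31 and 5.81 CPM in Ezh2-KO, with the CD44- NK1.1- library highest. Of the actin regulators, Cttn (cortactin) had 4.63, 4.47, 0.610 and 1.30 CPM and Wipf3 3.20, 3.10, 1.36 and 1.25 CPM in Ezh2-KO. Ank3, an ankyrin of the axon initial segment, had 3.05 and 2.92 CPM in the Ezh2-KO replicates, but 4 counts in CD44+ NK1.1+ and 3 in CD44- NK1.1- cells. The kinase gene Cdc42bpa had 2.22, 2.45, 2.11 and 1.92 CPM in Ezh2-KO and 0.985 CPM in WT CD44+ NK1.1+ cells, and left the set when CPM was scaled by TMM, a scaling that evens out library composition.

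Ion channel and transporter genes followed. Trpc1, a cation channel gene, had at most 0.451 CPM in WT and 2.46, 2.68, 1.64 and 3.07 CPM in Ezh2-KO. Kcnj2, the inward rectifier potassium channel gene of heart and muscle, had 4.04 and 4.05 CPM in the Ezh2-KO replicates, but 0.563 and 0.960 CPM in CD44+ NK1.1+ and CD44- NK1.1- cells. The bicarbonate transporter gene Slc4a4 was similarly low outside CD44+ NK1.1- cells, with 3.15 and 3.53 CPM against 0.469 CPM and 2 counts. Slc17a7, the vesicular glutamate transporter gene VGLUT1, had 3.15, 3.67, 2.63 and 1.58 CPM in Ezh2-KO and at most 0.696 CPM in WT.

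Vesicle genes were Dmxl2, Ica1 and Exph5. Dmxl2, a synaptic vesicle gene of the rabconnectin complex (gene identifier 235380, chromosome 9, 54365158 to 54501866), had 0.0451, 0.130, 0 and 0.499 CPM in WT and 4.68, 4.33, 2.35 and 7.44 CPM in Ezh2-KO. Ica1, an islet cell autoantigen gene, had 2.51, 2.45, 0.328 and 2.93 CPM in Ezh2-KO and at most 0.816 CPM in WT. For both, CD44- NK1.1- cells had the highest Ezh2-KO level. Exph5, a Rab27 effector gene, had the reverse order of the single libraries, with 5.27, 5.03, 1.74 and 0.672 CPM in Ezh2-KO. Its WT libraries held 0.947, 0.913, 0.269 and 0.861 CPM, so that the Ezh2-KO CD44- NK1.1- level of Exph5 lay below 3 of the 4 WT libraries.

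Enzymes and lipid carriers numbered 7. Capn11, a calpain gene best known from testis, had 0.451, 0.870, 0.940 and 0.907 CPM in WT and 3.496, 3.06, 4.79 and 5.71 CPM in Ezh2-KO. Both single Ezh2-KO libraries of Capn11 thus lay above the replicates that chose it, although TMM scaling took this gene out of the set as well. Fabp7, the brain fatty acid binding protein gene, had 2.31, 2.96, 0.704 and 2.45 CPM in Ezh2-KO. Echdc2 (3.10, 3.25, 0.798 and 3.84 CPM), the keratinocyte kinase gene Ripk4 (3.30, 2.92, 1.03 and 3.98 CPM) and the doublecortin-like kinase gene Dclk3 (2.71, 2.63, 0.0939 and 1.92 CPM) were each lowest in CD44+ NK1.1+ among Ezh2-KO libraries. Asphd2 had 2.61, 3.25, 3.05 and 2.21 CPM. Henmt1, the methyltransferase gene of piRNAs, had 2.36, 2.59, 0.798 and 1.58 CPM.

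The remaining symbols were the membrane protein gene Tmem98, the cilium gene Evc, and the less studied Lrrc49, Ccdc122 and Fsd1l. Tmem98 (gene identifier 103743, chromosome 11, 80810366 to 80822033) had 0.0451, 0.0435, 0 and 0.861 CPM in WT and 5.81, 5.60, 1.03 and 5.28 CPM in Ezh2-KO. Evc, a gene of hedgehog signalling at the cilium, had 2.31, 2.45, 1.03 and 3.89 CPM in Ezh2-KO. Lrrc49, Ccdc122 and Fsd1l reached at most 4.05 CPM in any library. The gene with identifier 100038398 has no symbol in the tables used here, and no position is given. It had 5, 5, 5 and 22 counts in the WT libraries and 76.7, 79.1, 21.0 and 67.8 CPM in the Ezh2-KO libraries, the highest CPM of the 45 in each of them.

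Reads of some of these genes are less certain. Evc overlaps Crmp1, Henmt1 overlaps Fam102b, Cdc42bpa overlaps Coq8a and Ccdc122 overlaps Lacc1, whose mean levels in the Ezh2-KO CD44+ NK1.1- replicates were 138, 70.6, 20.9 and 1.97 CPM. The WT means of these neighbours were 168, 57.0, 13.1 and 0.579 CPM. The overlaps are between the RefSeq bounds of whole genes, and shared exons were not looked for. No source used here gives the strand setting of the counting. Whether reads of a neighbour entered the counts of these genes was not tested. No members lay close together: the nearest starts, of Exph5 and Dmxl2, were 1063644 bases apart, and members fell on 16 chromosomes.

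**Figure D2:**
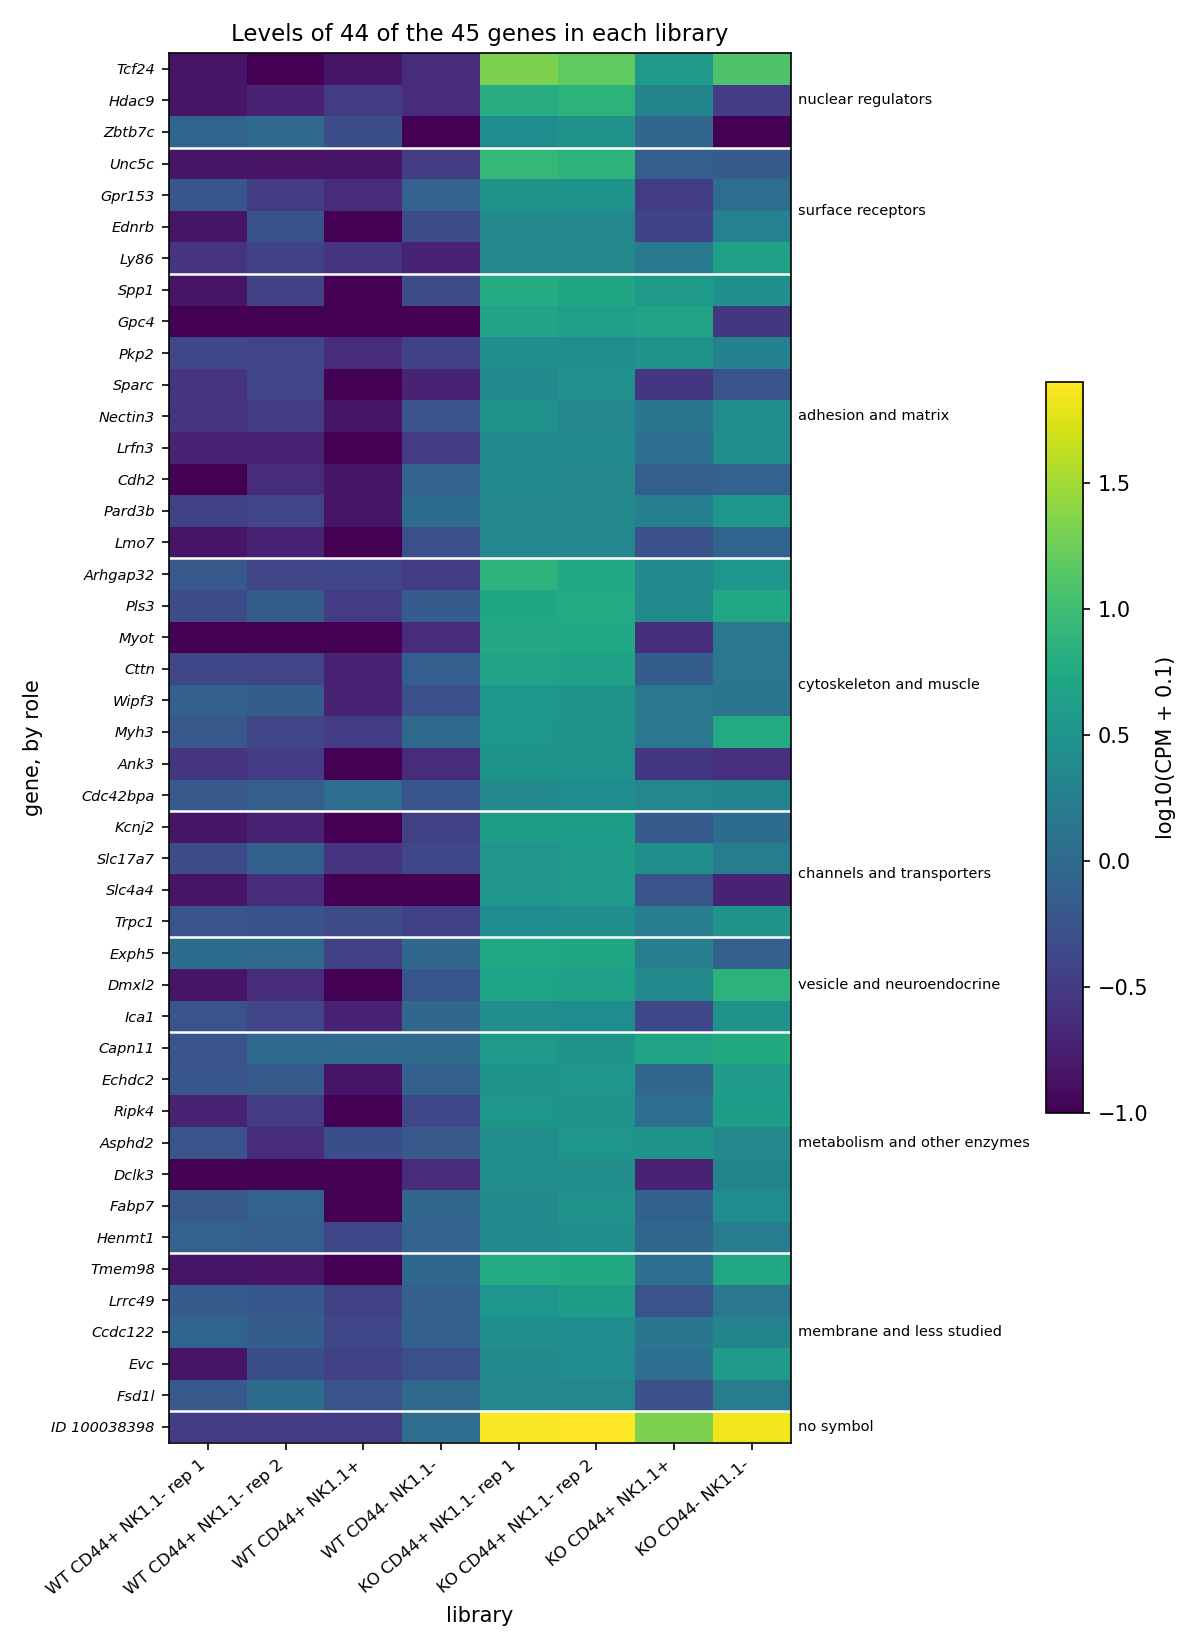
Colour gives log10(CPM + 0.1) of 44 of the 45 genes (rows, grouped by role) in the 8 libraries (columns). The Ezh2-KO CD44+ NK1.1- columns, which chose the genes, are alike, and the single Ezh2-KO columns are uneven, with 12 of the 45 at or above 2 CPM in CD44+ NK1.1+ and 21 in CD44- NK1.1- cells.

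How far the same genes were expressed in Ezh2-KO cells of the other subsets was asked next, from libraries the choice did not use. In the Ezh2-KO CD44+ NK1.1+ library 12 of the 45 (26.7%) were at or above 2 CPM, against 0.182% of the 14827 other genes under 1 CPM in all 4 WT libraries. In the Ezh2-KO CD44- NK1.1- library 21 of the 45 (46.7%) were, against 0.263% of the others. The groups split into 8 genes at that level in both libraries, 4 in CD44+ NK1.1+ alone, 13 in CD44- NK1.1- alone and 20 in neither. The 4 in CD44+ NK1.1+ alone were Gpc4, Pkp2, Slc17a7 and Cdc42bpa. The gap between the 45 and the other genes is partly built in, because the 45 were chosen as expressed in Ezh2-KO cells of a related subset. Of the other genes, 63.8% had 0 counts in all 4 WT libraries, against 1 of the 45.

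Levels outside CD44+ NK1.1- cells were mostly lower. The median ratio to the mean of the Ezh2-KO CD44+ NK1.1- replicates was 0.299 in CD44+ NK1.1+ and 0.684 in CD44- NK1.1- cells. Part of that is built in, because the replicates had to be high for a gene to be chosen. Pkp2, Capn11 and Gpc4 (6.67% of the 45) were above both replicates in CD44+ NK1.1+ cells, against 21.0% of all genes in the table. Gpc4 was so only just, at 4.880 against 4.875 CPM in the higher replicate. In CD44- NK1.1- cells 11 genes (24.4%) were, Dmxl2, Myh3 and Ly86 among them, against 26.3% of all genes. Neither share was above that of all genes. Summed over the 44 genes with a symbol, the level was 13.2 and 15.1 CPM in the WT replicates, 7.12 in WT CD44+ NK1.1+ and 20.4 in WT CD44- NK1.1- cells. In Ezh2-KO it was 173 and 166 CPM in the replicates, 61.6 in CD44+ NK1.1+ and 112 in CD44- NK1.1- cells. CD44+ NK1.1+ cells thus had the lowest sum in either genotype. In bulk samples fewer cells with a transcript and less transcript per cell cannot be told apart.

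The levels of the single Ezh2-KO libraries, which the choice did not use, were then compared directly. Of the 45, 32 (71.1%) were lower in CD44+ NK1.1+ than in CD44- NK1.1- cells, against 39.5% of all genes, which include many without reads. Gpc4, Hdac9, Zbtb7c and Exph5 were called higher. By edgeR's quasi-likelihood test at an adjusted p under 0.05 over 13794 genes, 11 of the 45 (all tested) were lower and 4 higher, against 7.17% of all tested genes lower and 8.18% higher. The share of the 45 called higher was thus close to that of all tested genes, and the share called lower was above it. The median log2 difference was -0.86 over the 45 and -0.02 over all tested genes. Each side had 1 library, so the spread came from the CD44+ NK1.1- replicates of both genotypes, which the choice did use, and the single libraries were assumed to vary like them. The WT limit acted unevenly on the subsets: of 48 genes that it alone kept out, 47 had 1 CPM or more in WT CD44- NK1.1- and 6 in WT CD44+ NK1.1+ cells. Medians of the 45 in WT had the same order as in Ezh2-KO, with 0.0895 CPM in CD44+ NK1.1+ and 0.408 CPM in CD44- NK1.1- cells. Whether the order is particular to Ezh2-KO cells was not tested.

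Higher in CD44+ NK1.1+ were Gpc4 (log2 difference 4.79, SE 0.51, edgeR adjusted p = 0.00675), Hdac9 (3.14, SE 0.49, adjusted p = 0.0129) and Exph5 (1.53, SE 0.39, adjusted p = 0.04935). Zbtb7c had 17 counts against 0 and was at least 5.54-fold higher, computed against 3 counts in the CD44- NK1.1- library (adjusted p = 0.0151). The lower genes covered several roles. They were the gene with identifier 100038398 (-1.52, SE 0.15, adjusted p = 0.003755), Tmem98 (-2.18, SE 0.33, adjusted p = 0.0120), Ica1 (-2.97, SE 0.50, adjusted p = 0.0158), Echdc2 (-2.09, SE 0.38, adjusted p = 0.0194) and Myh3 (-1.97, SE 0.41, adjusted p = 0.0282). Dclk3 had 2 counts against 40, a CPM ratio of 20.5 (counting interval 5.30 to 175, edgeR adjusted p = 0.02105), and Myot 3 against 28, a CPM ratio of 9.54 (2.95 to 49.1, adjusted p = 0.0331). Tcf24 (-1.67), Dmxl2 (-1.50), Ripk4 (-1.78) and Ly86 (-1.48) completed the calls, with edgeR adjusted p between 0.0323 and 0.0496.

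These calls rest on few libraries. Gpc4 and identifier 100038398 alone kept the call in all 13 alternatives. Exph5 kept it in 5 of the 13, the fewest of the called genes. The differences kept their sign, but every alternative takes them from the same single libraries. A change of sign was therefore hardly possible, and its absence says nothing about how stable they are. Without either Ezh2-KO CD44+ NK1.1- replicate 1 gene stayed higher and 1 lower, and without either WT CD44+ NK1.1- replicate 7 were higher and 21 lower, the spread then coming from the Ezh2-KO pair alone. DESeq2 called 3 higher and 1 lower.

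**Figure D3:**
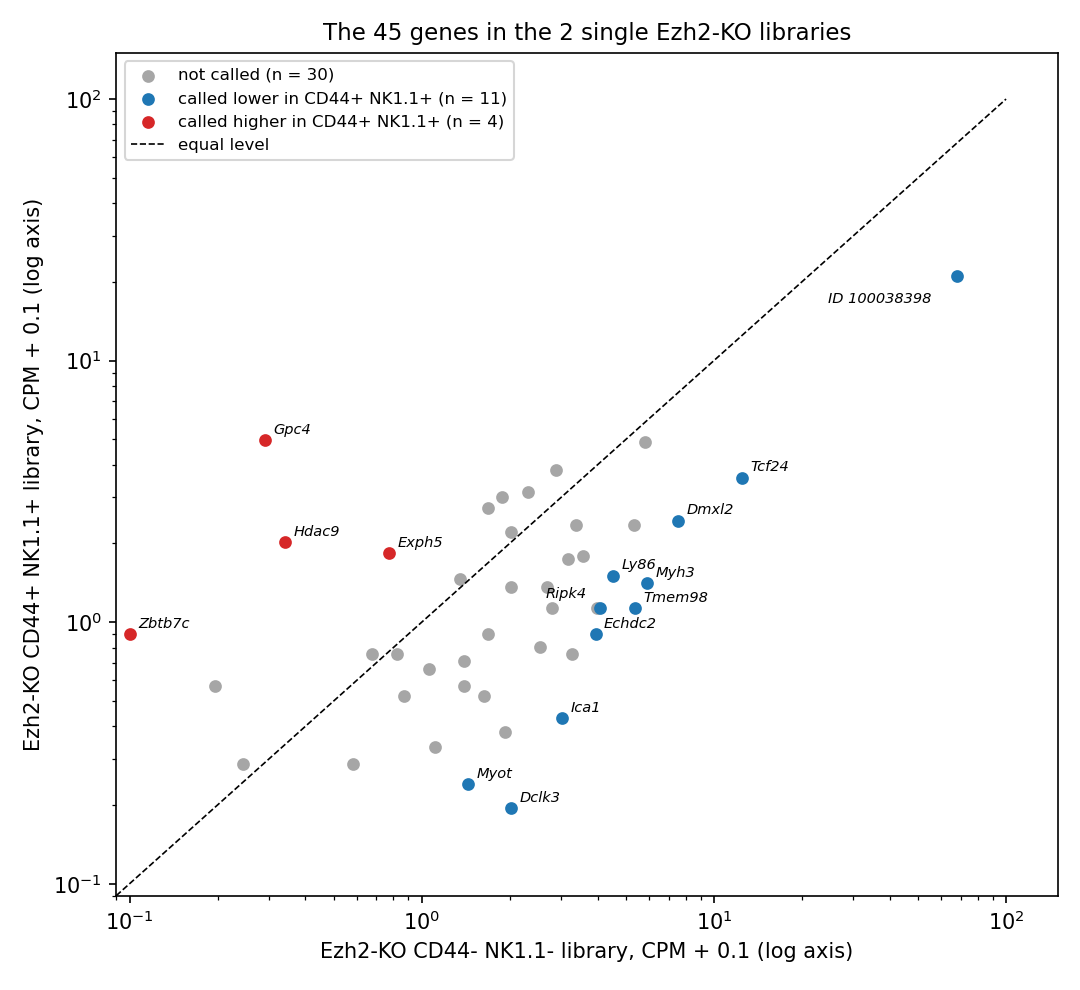
CPM + 0.1 of the 45 genes in the Ezh2-KO CD44- NK1.1- library (x, log axis) against the Ezh2-KO CD44+ NK1.1+ library (y, log axis), 1 point per gene, coloured by the edgeR call, with the line of equal level dashed. The 11 genes called lower lie below the line and the 4 called higher above it, Gpc4 farthest from it among genes with counts in both libraries.

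Gene families were counted by symbol among the genes under 1 CPM in all 4 WT libraries, of which the 45 are 0.303%. Basic helix-loop-helix factors gave 1 of 55 (Tcf24), homeobox factors outside the Hox clusters 0 of 138 and other developmental transcription factors 0 of 117. These counts leave out Eomes and Mef2c, transcription factor genes that met the thresholds, were removed by the rule and are in none of these lists. Ion channels and synaptic proteins gave 3 of 218 (Kcnj2 and Trpc1 among them), axon guidance genes 1 of 47 (Unc5c), G protein coupled receptors 2 of 130 (Ednrb, Gpr153), solute carriers 2 of 227 (Slc17a7, Slc4a4) and cadherins 1 of 100 (Cdh2). None came from 119 growth factor and receptor genes, 104 genes of the matrix list, 112 germline genes, 27 genes of the imprinted list and 3605 long non-coding or predicted genes, nor from 166 cytokine, chemokine and CD antigen genes once Ccl3 was left out by the rule. The matrix list does not hold Sparc or Spp1, nor the imprinted list Grb10, an imprinted gene that met the thresholds and was left out. With so few genes per family these counts are descriptions.

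Markers of other cell types were read in the same libraries. Among neural markers Sox10 was at 0 in all 8 libraries, Snap25 in 7, and Gfap reached at most 0.336 CPM. Tubb3 moved with the 45 genes, with 3.52 and 4.57 CPM in the WT and 10.4 and 9.74 CPM in the Ezh2-KO CD44+ NK1.1- replicates. It had 0.985 and 1.27 CPM in CD44+ NK1.1+ and 5.94 and 8.49 CPM in CD44- NK1.1- cells of WT and Ezh2-KO. Summed neural markers ran from 1.25 to 6.98 CPM in WT and from 1.69 to 11.1 CPM in Ezh2-KO. Of the 5 thymic epithelial markers Foxn1, Psmb11, Krt5 and Krt8 were at or under 0.224 CPM in every library, and the list summed to 2.17 to 5.37 CPM in WT and 2.92 to 5.37 CPM in Ezh2-KO. The stromal markers Col3a1 and Pdgfra were at 0 in all 8 libraries, while the stromal list summed to 54.5 to 166 CPM in WT and 62.6 to 176 CPM in Ezh2-KO, nearly all of it Pecam1. Col1a1 of that list was higher in Ezh2-KO in each subset, with 2.07 and 1.87 CPM in the WT and 4.38 and 4.61 CPM in the Ezh2-KO CD44+ NK1.1- replicates. It had 2.01 and 3.24 CPM in CD44+ NK1.1+ and 1.99 and 4.61 CPM in CD44- NK1.1- cells of WT and Ezh2-KO. Pdgfrb went the other way in CD44+ NK1.1- cells, with 0.992 and 0.609 CPM in the WT and 0.394 and 0.0941 CPM in the Ezh2-KO replicates. Its levels were 0.806 and 0.892 CPM in CD44+ NK1.1+ and 0.680 and 0.144 CPM in CD44- NK1.1- cells of WT and Ezh2-KO. Cdh5 and Col1a2 stayed at or under 0.240 CPM in every library. The part of cells marked by Tubb3 or Col1a1 in the levels of the 45 genes was not tested.

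Blood cell markers gave low sums apart from one list. B cell markers summed to 0.998 to 3.72 CPM in WT and 1.68 to 4.46 CPM in Ezh2-KO, myeloid markers to 5.22 to 11.1 and 4.09 to 11.5 CPM, and dendritic markers to 4.49 to 9.76 and 3.84 to 9.34 CPM. Gamma-delta T cell markers, some of which NKT cells also express, summed to 362 to 876 CPM in WT and 578 to 899 CPM in Ezh2-KO. Trdc, the delta constant gene of that list, had 10.4 and 6.48 CPM in the WT and 35.0 and 36.2 CPM in the Ezh2-KO CD44+ NK1.1- replicates. It had 9.76 and 27.2 CPM in CD44+ NK1.1+ and 8.80 and 7.68 CPM in CD44- NK1.1- cells of WT and Ezh2-KO. Trdc was thus higher in Ezh2-KO in the CD44+ subsets and not in the CD44- subset. Sox13 had 61.8 and 57.4 CPM in the WT and 166 and 162 CPM in the Ezh2-KO CD44+ NK1.1- replicates, 18.8 and 94.6 CPM in CD44+ NK1.1+ and 306 and 308 CPM in CD44- NK1.1- cells. Trgc1 was higher in Ezh2-KO in each subset, from 223 and 248 to 389 and 383 CPM in the replicates, 262 to 399 CPM in CD44+ NK1.1+ and 465 to 521 CPM in CD44- NK1.1- cells. Blk was lower in Ezh2-KO in each subset, from 97.5 and 118 to 90.6 and 94.7 CPM, from 58.2 to 49.6 CPM and from 95.03 to 60.6 CPM in the same order. Il23r went from 15.6 and 22.7 to 12.8 and 13.1 CPM, from 13.8 to 7.09 CPM and from 0.725 to 1.25 CPM. The list thus moved in both directions, and its part in the levels of the 45 genes was not tested.

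Because the WT libraries of the single subsets entered the choice, the difference between genotypes there cannot be tested on the 45. A wider set was therefore chosen on the CD44+ NK1.1- libraries alone, by the same thresholds and exclusions, and read in the 4 single libraries. This set was added after seeing the data. It held 93 genes, the 45 and the 48 that the WT limit in the single libraries had kept out. In CD44+ NK1.1+ cells 92 of the 93 were higher in Ezh2-KO than in WT, 83 of them 2-fold or more, against 12.2% of the other genes under 1 CPM in both WT CD44+ NK1.1- libraries. In CD44- NK1.1- cells 84 were higher, 63 of them 2-fold or more, against 13.0% of the others. Those shares of the others are for 2-fold or more. For a higher level of any size, the shares of all genes in the table were 31.6% in CD44+ NK1.1+ and 37.6% in CD44- NK1.1- cells. The others and the table as a whole include many genes with no reads in these libraries, which cannot show a difference.

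An edgeR fit of subset and genotype on those 4 libraries, with 1 residual degree of freedom, tested 83 of the 93 genes, because 10, all among the 45, had too few counts for its filter. It called 4 higher and 0 lower at an adjusted p under 0.05, against 0.363% of 12954 tested genes higher and 0.147% lower. At an unadjusted p under 0.05, 59 were higher and 1 lower, against 7.58% of tested genes higher. The 4 calls were identifier 100038398 (log2 change 6.16, adjusted p = 0.003442 by edgeR), Tcf24 (6.32, adjusted p = 0.0157), Pls3 (3.17, adjusted p = 0.0482) and Zswim5 (3.08, adjusted p = 0.0288), the last not among the 45. Tcf24 had 1 and 3 counts in the WT libraries of this fit, so its size depends on the prior count. The filter of the fit used genotype as the group. A gene near 0 in both WT libraries could therefore enter only by its counts in Ezh2-KO. For such genes the direction was fixed by the filter, while the tested genes as a whole include many expressed in WT. The numbers of genes higher and lower in this fit are therefore descriptions.

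**Figure D4:**
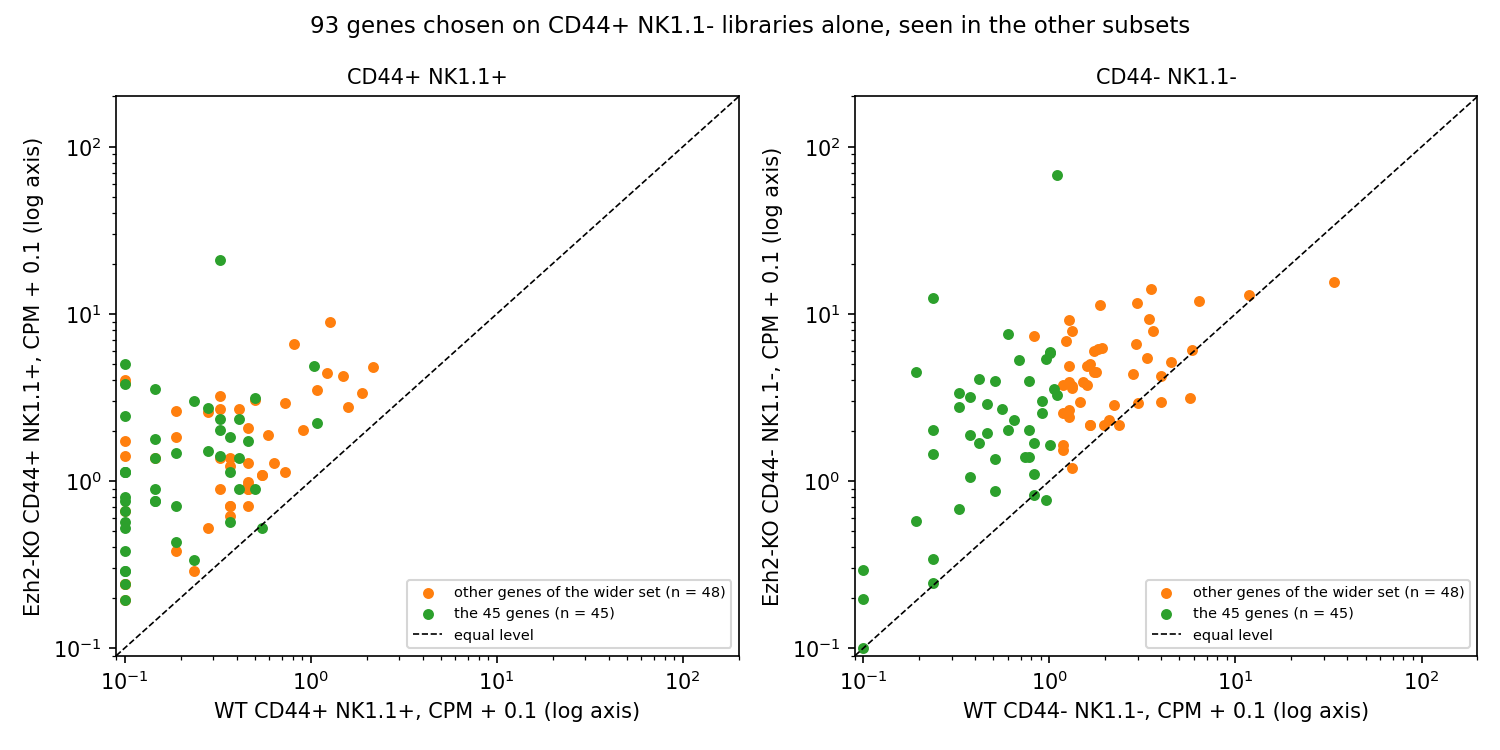
CPM + 0.1 in WT (x, log axis) against Ezh2-KO (y, log axis) for the 93 genes chosen on CD44+ NK1.1- libraries alone, in CD44+ NK1.1+ cells (left) and CD44- NK1.1- cells (right), with the line of equal level dashed. Above the line lie 92 genes on the left and 84 on the right, and most of the 48 other genes have WT levels over 1 CPM on the right.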

How the data were processed

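RNA was sequenced from 8 libraries of thymic NKT cells. The authors deposited raw counts of reads per gene. Per the submitters' processing notes they used CASAVA, Subread 1.4.3-p1, featureCounts and mouse build mm10. For the annotation and strand handling, nothing was given in the sources used here. Files of single samples matched the series table, whose columns were mapped by the labels. Of 27179 identifiers, 25275 matched a symbol in RefSeq's GRCm38.p6 table, the source of positions.

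CPM used the column totals, and RPKM the gene lengths in the deposited table. Tests used R 4.3.3 and edgeR 4.0.16: filterByExpr on the 6 groups, TMM, estimateDisp, glmQLFit (robust=TRUE), the quasi-likelihood F test with 2 residual degrees of freedom, and Benjamini-Hochberg adjustment over 13794 genes. The SE is the log2 difference over the root of F. On simulated data for this comparison, with 200 of 13417 genes changed 4-fold, 98% were recovered and 3.45% of calls were false. In that simulation all libraries varied alike, and the changed genes were drawn from those above a count floor. It therefore checks the procedure where single libraries do vary like the replicates, and it cannot show how many real calls are false. Alternatives were DESeq2 1.42.0, limma 3.58.1, other scalings, filters and thresholds, and each replicate left out.

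The genes, lists and roles were chosen with earlier results of these data known. The naming rule took Ezh2, the 12 genes highest by RPKM and by CPM, up to 6 called each way, 3 of those under 1 CPM in both single Ezh2-KO libraries, those at the thresholds, and families with 3 or more members. Values of the remaining members, which the rule left as a range, are given too. 1 member is counted in every total but not reported here by itself.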

Additional observations from a re-analysis of the deposited data

How the results depend on the processing

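The number of genes followed the thresholds: 21 with WT under 0.5 CPM, 165 and 15 with Ezh2-KO at or above 1 or 4 CPM, 93 with only the CD44+ NK1.1- WT libraries, and 47 to 63 with a replicate left out, against 45. TMM or DESeq2 scaling gave 43, without Capn11 and Cdc42bpa. At 1 CPM, 25 of the 45 reached the level in Ezh2-KO CD44+ NK1.1+ and 34 in CD44- NK1.1- cells, and at 4 CPM 3 and 8. Between these libraries DESeq2 called 1 gene lower, glmTreat against a fold of 1.5 called 5 lower, and a fit of the 4 Ezh2-KO libraries alone 7 higher and 23 lower. With a replicate left out, 1 to 7 genes were called higher and 1 to 21 lower. Scaling by library size moved the median of all genes to -0.18, with 3 higher and 13 lower. The sign of a called gene's difference comes from the same single libraries in every alternative, so that it did not change is no check. The wider set of 93 genes and its fit were added after seeing the data. No paired analysis was possible because the labels carry no replicate numbers shared between groups. Most levels rest on a single library and few counts, which limits their precision.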

Other observations

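The genes that met the thresholds in the opposite direction were Hrh4, a histamine receptor gene, Cpe, a carboxypeptidase gene of hormone processing, and Dlg5, a scaffold gene of cell polarity. Hrh4 had 4.46 and 4.78 CPM in the WT CD44+ NK1.1- replicates, 9.45 in WT CD44+ NK1.1+ and 1.68 in WT CD44- NK1.1- cells, against at most 0.689 CPM in Ezh2-KO. Cpe had 2.61 and 2.48 CPM in the WT replicates, 1.43 in WT CD44+ NK1.1+ and 0.0453 in WT CD44- NK1.1- cells, against at most 0.235 CPM in Ezh2-KO. Dlg5 had 2.07 and 3.48 CPM in the WT replicates, 4.16 in WT CD44+ NK1.1+ and 0.499 in WT CD44- NK1.1- cells, against at most 0.936 CPM in Ezh2-KO. In WT all 3 were lowest in CD44- NK1.1- cells.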
